A study of Mus musculus with 30 samples.

Results

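The 30 genes described here encode subunits of the BAF chromatin remodelling complex and of its close variants, the mammalian SWI/SNF family. They were listed by gene symbol as subunits of these complexes, the listing rule used no measured value, and all 30 were found once each among the 24883 rows of the expression table. All of them averaged at least 1 FPKM (fragments mapped to a gene, scaled by transcript length and by all mapped fragments) and so entered the tests, which ran over 13184 rows. The mice were male wild-type C57BL/6J animals of 2 to 4 months, singly housed, 6 in each of 5 conditions with 1 library per mouse. VEH-HC mice stayed in the home cage with handling alone. VEH-T10 mice were trained for 10 min and VEH-T3 mice for 3 min in object location memory (OLM), and these 3 conditions received the in vivo-JetPEI reagent without DNA. Y397F-T10 and Y397D-T3 mice had the same training times, and 3 days earlier the reagent had carried a plasmid into the dorsal hippocampus of both sides. That plasmid encoded HA-tagged mouse CREST with the named substitution, driven by a shortened CaMK2 promoter. Tissue was taken 1 h after training. No condition carried a plasmid with unmutated CREST, so the substitution and the delivery of a plasmid cannot be told apart.

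BAF complexes use ATP to slide or evict nucleosomes and so change which stretches of DNA other proteins can reach. Each complex holds 1 ATPase, a scaffold of shared core subunits and a set of positions filled by alternative paralogs. When neural progenitors become neurons, several of those positions change hands: ACTL6A, SS18 and DPF2 or PHF10 give way to ACTL6B, CREST and DPF1 or DPF3, and the result is called nBAF. CREST, the calcium-responsive transactivator, is the product of Ss18l1 and binds the acetyltransferase CBP, encoded by Crebbp.

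Ss18l1 lies on the plus strand of chromosome 2 at 180042509-180070201 (GRCm38, the assembly also called mm10). Residue 397 of its 402-residue product is encoded in exon 11 of 11, at chr2:180067338-180067340. The coding part of that exon is shown because it holds the codon that both plasmids changed; the capitals mark the tyrosine codon and the last 3 bases are the stop codon.
Ss18l1 exon 11, chr2:180067332-180067358, plus strand: ggccagTATggaaattaccagcaataa

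FPKM carries no read totals. Relative depth was estimated from the smallest spacing of values in 2642 rows of low FPKM. It ran from 0.811 to 1.244 of the median library, so no library was more than moderately shallower than another. Standard errors of the comparisons used the spread of mice within conditions, pooled over all 30 libraries and moderated across genes. All 6 CA1 pyramidal cell markers were detected, with summed FPKM between 184.2 and 274.6 in every library. Choroid plexus markers were uneven, with sums from 10.15 to 12810 and a median of 3156 in VEH-HC against 55.8 to 1957 in the trained conditions. Mouse 1 of VEH-T10, of Y397F-T10 and of VEH-T3 had the lowest astrocyte, oligodendrocyte and microglia marker sums of its condition. VEH-HC mouse 4 stood apart in its longest transcripts, whose median lay 0.15 below the average library on the log2 scale. In bulk tissue, fewer cells of a type and less RNA per cell cannot be told apart.

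The subunit genes spanned a wide range of levels. Actb, which encodes the β-actin shared by the complex and the cytoskeleton, averaged 774 FPKM and was above every other member in all 30 libraries. Of the subunits dedicated to chromatin, Smarcc2 was the highest, with a median of 59.2 FPKM and a range from 55.4 to 66.3 FPKM over the 30 mice. Actl6b, Smarca2, Bcl11a and Smarcb1 followed with mean levels of 51.5, 46.5, 41.3 and 40.1 FPKM. At the other end, Dpf3 averaged 4.04 FPKM, Arid2, which belongs to the PBAF variant, 4.63 FPKM, and Gltscr1, a subunit of the non-canonical BAF variant annotated as Bicra, 5.90 FPKM. Beyond Actb, no gene was separated from its neighbour in this order by its range over the 30 mice, although Smarcd2 exceeded Pbrm1, and Gltscr1 exceeded Arid2, in 30 of 30 libraries. The coefficient of variation over all mice was lowest for Smarcc2 (4.2%) and highest for Dpf3.

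**Figure D1:**
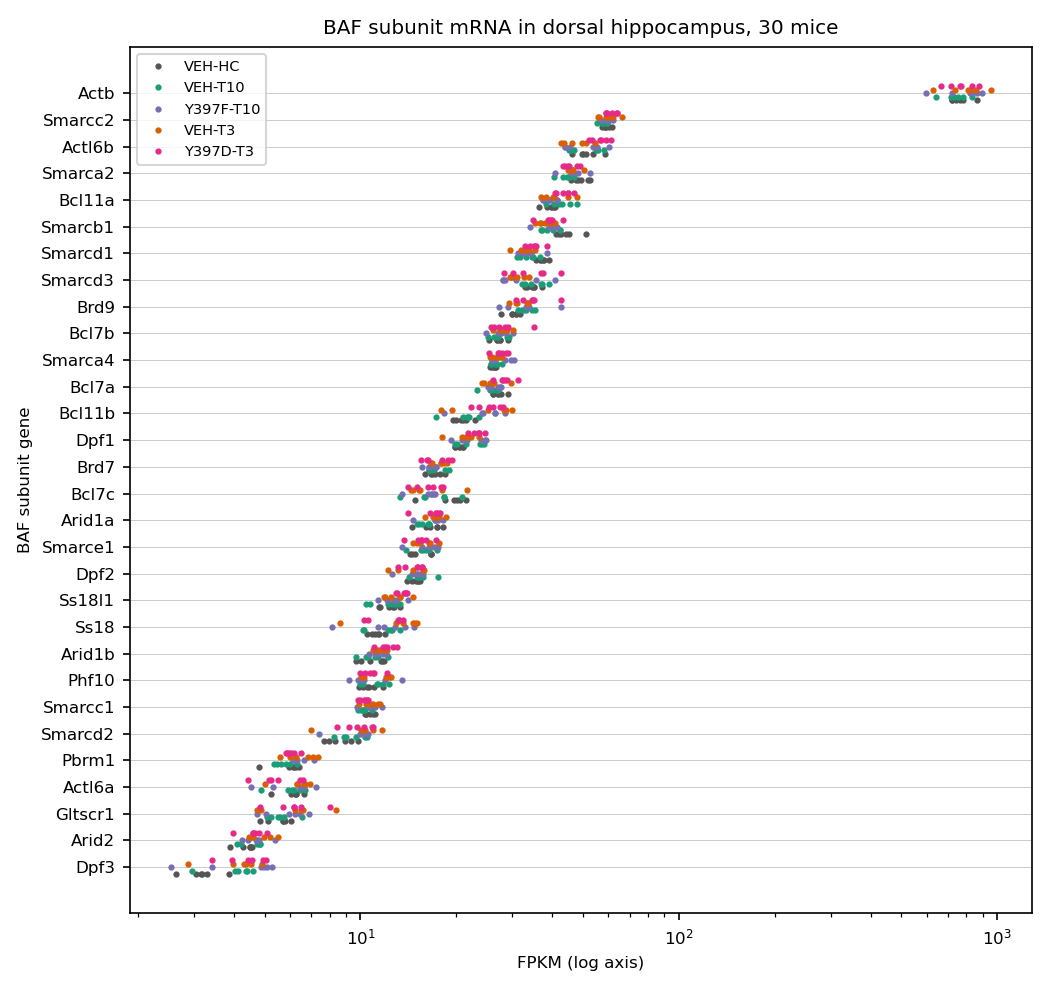
FPKM of the 30 BAF subunit genes (log axis), 1 point per mouse, coloured by condition, with genes ordered by their mean. Actb stands alone near 774 FPKM, the other 29 lie between about the level of Dpf3 (4.04 FPKM) and that of Smarcc2 (59.6 FPKM), and the conditions overlap in most rows.

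The comparisons with VEH-HC ask which subunit genes differed 1 h after training, and all of them share the same 6 home cage libraries. The OLM procedure in the paper also includes habituation to the chamber on the days before training. VEH-HC mice were only handled, so habituation and training cannot be told apart in these comparisons. The counts below used limma on log2(FPKM + 1), with Benjamini-Hochberg adjustment over all tested rows. In VEH-T3, 2 of the 30 members were lower than in VEH-HC, where 2.94% of all rows were called lower, and 0 were higher, where 2.23% of all rows were. In the mean of the 4 trained conditions, 2 members were lower and 1 was higher, against 5.79% and 3.86% of all rows. These splits turned with the scaling. After a trend on transcript length and GC content was removed from each library, the trained mean had 0 members lower and 3 higher (Smarcd2, Dpf1 and Dpf3), and all rows went from 509 higher and 764 lower to 740 higher and 231 lower. VEH-T3 then had 0 members lower and 1 higher (Smarcd2), and all rows went from 294 higher and 387 lower to 187 and 34. With libraries centred on their medians the trained mean had 1 member lower and 1 higher with 603 rows higher and 307 lower, and VEH-T3 had 1 member lower and 0 higher with 239 rows higher and 102 lower. In VEH-T10, Y397F-T10 and Y397D-T3 against VEH-HC, 0 members passed, and 0.819%, 1.13% and 7.07% of all rows did. Members with an unadjusted p under 0.05 numbered 5 in VEH-T10, 5 in VEH-T3, 7 in Y397F-T10, 10 in Y397D-T3 and 9 in the trained mean, where 14.9%, 21.6%, 16.9%, 24.9% and 25.3% of all rows met that limit. A Cyber-T-style test, which borrows variance from genes of similar level and adjusts p by Tukey's method over the pairs of conditions but not over genes, called 0, 1, 0 and 1 members in VEH-T10, VEH-T3, Y397F-T10 and Y397D-T3, and 3.3%, 4.7%, 3.22% and 7.82% of all rows. The 1 member was Smarcb1 in VEH-T3 and Bcl11b in Y397D-T3.

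Differences were small. In VEH-T3 against VEH-HC the members' log2 fold changes ran from -0.22 for Smarcb1 to 0.29 for Dpf3, and 25 of 30 lay within 0.2 of zero. Their median was 0.05, beside -0.04 over all rows. Of the 30, 22 were above 0, beside 5142 of the 13184 rows, in the fit without centring or trend removal. In Y397D-T3 against VEH-HC their median was 0.05 beside -0.03 over all rows, in Y397F-T10 0.02 beside -0.04, and in VEH-T10 0.01 beside -0.03.

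Smarcb1 (chr10:75896769-75921617, minus strand) encodes a core subunit that grips the nucleosome and is present in BAF and PBAF. It ranged from 41.1 to 51.0 FPKM in VEH-HC, with a median of 43.4. In VEH-T3 it ranged from 35.4 to 40.8 FPKM, with a median of 37.5, so the 2 conditions did not overlap. The range was 37.0 to 42.3 FPKM in VEH-T10 (median 39.5), 34.9 to 43.2 FPKM in Y397D-T3 (median 39.4) and 34.1 to 41.5 FPKM in Y397F-T10 (median 40.1), each reaching into the lower end of the VEH-HC range. Smarcb1 fell by 0.22 ± 0.0542 (SE) on the log2 scale in VEH-T3 (adjusted p = 0.0212) and by 0.18 ± 0.0428 (SE) in the trained mean (adjusted p = 0.0101), and 24 of 24 trained mice lay below the VEH-HC median. The log2 differences from VEH-HC were -0.16 for VEH-T10, -0.17 for Y397F-T10 and -0.17 for Y397D-T3, with adjusted p of 0.148, 0.102 and 0.0535. With VEH-HC mouse 4, the highest, left out, the VEH-T3 difference was -0.18 (adjusted p = 0.0626), and without VEH-T3 mouse 3 it was -0.21 (adjusted p = 0.0545). With only the 2 conditions fitted the adjusted p was 0.0859. After the length and GC trend was removed it was -0.11 (adjusted p = 0.254), and the trained mean difference was -0.08 (adjusted p = 0.181).

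Smarcd1 (chr15:99702129-99713991, plus strand) encodes BAF60a, 1 of 3 alternative subunits that connect the complex to transcription factors. It ranged from 35.7 to 39.2 FPKM in VEH-HC (median 37.2) and from 29.6 to 35.2 FPKM in VEH-T3 (median 33.04), again without overlap. The range was 31.0 to 36.6 FPKM in VEH-T10 (median 33.7), 32.96 to 38.5 FPKM in Y397D-T3 (median 35.3) and 31.3 to 38.6 FPKM in Y397F-T10 (median 33.8), so those 3 conditions reached into the home cage range. Smarcd1 fell by 0.18 ± 0.0472 (SE) in VEH-T3 (adjusted p = 0.0266) and by 0.13 ± 0.0373 (SE) in the trained mean (adjusted p = 0.0236), with 22 of 24 trained mice below the VEH-HC median. The VEH-T3 call was lost when libraries were centred on their medians (adjusted p = 0.14), under the length and GC trend (-0.09, adjusted p = 0.538) and when VEH-HC mouse 2 or 4 or VEH-T3 mouse 2, 3 or 4 was left out (adjusted p from 0.0545 to 0.0736). It was also lost with only the 2 conditions fitted (adjusted p = 0.083) and with the Cyber-T-style test (Tukey-adjusted p = 0.103). The trained mean call was lost on centring (adjusted p = 0.193), under the trend (adjusted p = 0.539) and without VEH-HC mouse 2 or 4 (adjusted p = 0.0601 and 0.0773).

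Neither paralog of Smarcd1 passed the adjusted threshold. Smarcd2, better known from blood cell development, had median levels of 8.65 FPKM in VEH-HC and 9.36 to 10.3 FPKM in the trained conditions, and a trained mean difference of 0.15 (adjusted p = 0.182). After the length and GC trend was removed, that difference was 0.24 (adjusted p = 0.0127). Smarcd3, the form prominent in neurons and heart, had a median of 34.8 FPKM in VEH-HC and 35.6 FPKM in VEH-T10, 30.5 FPKM in VEH-T3, 29.6 FPKM in Y397F-T10 and 34.6 FPKM in Y397D-T3.

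Dpf3 (chr12:83213745-83487716, minus strand) encodes BAF45c, a subunit whose PHD fingers read modified histone tails. It was the lowest of the members, and ranged from 2.63 to 3.87 FPKM in VEH-HC (median 3.18). The range was 2.95 to 4.61 FPKM in VEH-T10 (median 4.24) and 2.87 to 4.89 FPKM in VEH-T3 (median 4.35). With a plasmid it was 2.54 to 5.27 FPKM in Y397F-T10 (median 4.92) and 3.43 to 5.06 FPKM in Y397D-T3 (median 4.50). All 4 medians exceeded the highest home cage mouse, but in each trained condition 1 mouse stayed within the home cage range. A further Y397F-T10 mouse, at 2.54 FPKM, lay below that range. In the trained mean Dpf3 rose by 0.31 ± 0.097 (SE) on the log2(FPKM + 1) scale (adjusted p = 0.0392), with 21 of 24 trained mice above the VEH-HC median. The differences were 0.27 for VEH-T10 (adjusted p = 0.293), 0.29 for VEH-T3 (adjusted p = 0.158), 0.33 for Y397F-T10 (adjusted p = 0.167) and 0.36 for Y397D-T3 (adjusted p = 0.0719). The trained mean call was kept after median centring and after the length and GC trend was removed. It was lost without a filter on low rows (adjusted p = 0.0519) and without any of VEH-HC mice 2, 3, 4, 5 or 6 (adjusted p from 0.0684 to 0.127); without VEH-HC mouse 4 the difference was 0.27. Leaving out Y397F-T10 mouse 3 or 6, VEH-T3 mouse 2 or 3, or Y397D-T3 mouse 4 or 5 gave adjusted p from 0.0503 to 0.0524.

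**Figure D2:**
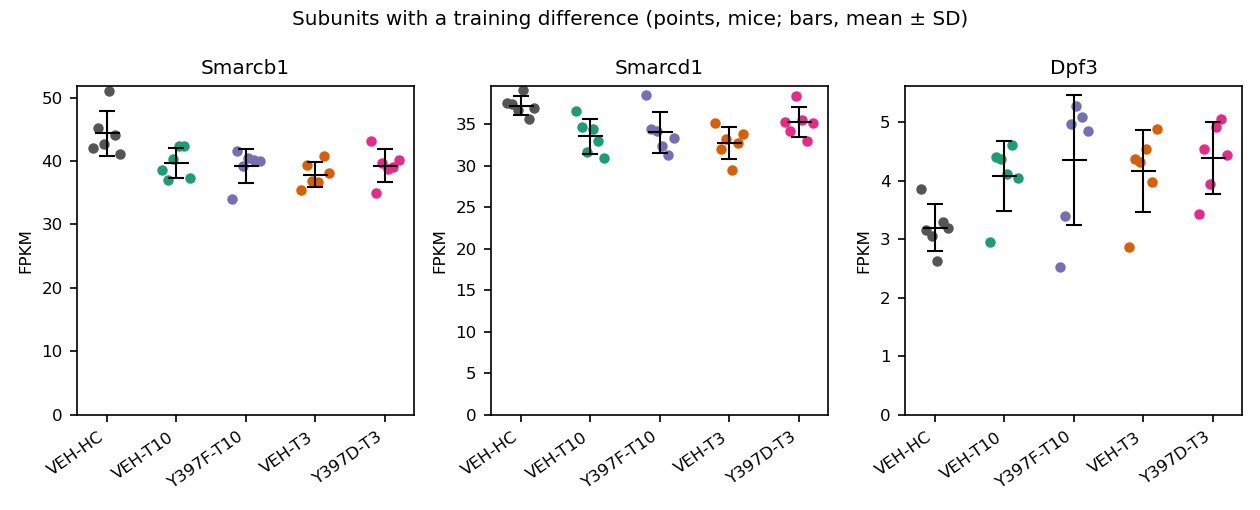
FPKM of Smarcb1, Smarcd1 and Dpf3 by condition, 1 point per mouse, with the mean and SD of 6 mice as bars. Smarcb1 and Smarcd1 are lower in VEH-T3 than in every VEH-HC mouse, and Dpf3 is higher in most trained mice than the VEH-HC median of 3.18 FPKM.

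Dentate granule cell markers moved alongside Dpf3. The summed FPKM of the 5 markers, none of them at 0 throughout, ranged from 107.6 to 138.5 in VEH-HC (median 111.6), from 68.7 to 158.7 in VEH-T10 (median 120.1) and from 73.3 to 161.7 in VEH-T3 (median 141.7). With a plasmid the range was 64.1 to 176.3 in Y397F-T10 (median 137.1) and 88.4 to 170 in Y397D-T3 (median 144.1). Interneuron markers, whose mean log2 level Dpf3 followed inversely over mice, had median sums of 736.7 FPKM in VEH-HC, 641.8 FPKM in VEH-T10, 585.8 FPKM in VEH-T3, 611.8 FPKM in Y397F-T10 and 744.3 FPKM in Y397D-T3. The part of either list in the Dpf3 difference was not tested.

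Dpf1, the other nBAF paralog at that position, ranged from 19.8 to 21.04 FPKM in VEH-HC (median 20.4) and from 21.8 to 24.7 FPKM in Y397D-T3 (median 23.5), without overlap. The difference was 0.18 and missed the adjusted threshold (adjusted p = 0.0722), but passed it when only those 2 conditions were fitted (adjusted p = 0.00874). With the length and GC trend removed, Dpf1 passed in Y397D-T3 (0.27, adjusted p = 0.0347) and in the trained mean (0.22, adjusted p = 0.0368). Dpf1 had medians of 22.7 FPKM in VEH-T10, 21.6 FPKM in VEH-T3 and 22.7 FPKM in Y397F-T10, whose ranges overlapped VEH-HC. The progenitor paralogs Dpf2 and Phf10 had medians between 15.04 and 15.2 FPKM and between 10.2 and 12.1 FPKM in the 5 conditions, and neither passed in a comparison between conditions.

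Ss18l1 itself differed little. It ranged from 11.4 to 13.3 FPKM in VEH-HC (median 12.5) and from 12.9 to 14.02 FPKM in Y397D-T3 (median 13.7), with overlap, and the log2 difference of 0.13 had an adjusted p of 0.163. The range was 10.4 to 13.3 FPKM in VEH-T10, 11.8 to 14.7 FPKM in VEH-T3 and 11.4 to 14.05 FPKM in Y397F-T10. In these FPKM values plasmid and chromosomal copies share a row and cannot be told apart. Its paralog Ss18, which fills the same position in progenitors and glia, had medians of 11.2 FPKM in VEH-HC, 12.4 FPKM in VEH-T10, 14.1 FPKM in VEH-T3, 12.4 FPKM in Y397F-T10 and 13.2 FPKM in Y397D-T3. VEH-T3 mouse 1 had the lowest Ss18 level of its condition, at 8.59 FPKM. With that mouse left out, the difference of VEH-T3 from VEH-HC was 0.32 for Ss18 (adjusted p = 0.0422), and 5 members in place of 2 passed. The share of all rows called in that fit was not computed, so the 5 members have no background beside them.

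The 2 ATPase genes missed the adjusted threshold in every comparison fitted on all 30 libraries. Smarca2, which encodes BRM, ranged from 45.7 to 52.7 FPKM in VEH-HC (median 48.7) and from 40.6 to 46.8 FPKM in VEH-T10 (median 44.8), a log2 difference of -0.15 (adjusted p = 0.107). Its trained mean difference was -0.10 (adjusted p = 0.0824), with 21 of 24 mice below the VEH-HC median. Without Y397F-T10 mouse 2 that difference was -0.11 and passed (adjusted p = 0.0385). Smarca4, which encodes BRG1, had medians between 26.3 and 27.6 FPKM in the 5 conditions, and its 0.08 difference in Y397F-T10 had an adjusted p of 0.281.

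Among the scaffold subunits, Smarcc2 had medians of 58.0 to 60.6 FPKM and Smarcc1 of 10.2 to 10.9 FPKM in the 5 conditions, and Smarce1, which carries an HMG box, of 15.5 to 16.7 FPKM. The ARID subunits, which bind DNA and mark the canonical complex, had medians of 15.9 to 17.3 FPKM for Arid1a and 10.8 to 12.03 FPKM for Arid1b. Arid2, Pbrm1 and Brd7, which define PBAF, and Brd9 and Gltscr1, which define non-canonical BAF, also missed the adjusted threshold. Brd9, a bromodomain protein, had a median of 30.3 FPKM in VEH-HC and 34.7 FPKM in Y397D-T3, with a difference of 0.21 (adjusted p = 0.0863). It passed when the length and GC trend was removed (0.29, adjusted p = 0.0294). Choroid plexus markers, whose mean log2 level Brd9 followed inversely over mice, had median sums of 3156 FPKM in VEH-HC and 124.2 FPKM in Y397D-T3. Their part in the Brd9 difference was not tested. Of the BCL7 subunits, which attach near the ATPase, Bcl7c had medians of 19.9 FPKM in VEH-HC and 15.3 to 17.2 FPKM in the trained conditions, and a trained mean difference of -0.20 (adjusted p = 0.106), with 22 of 24 mice below the VEH-HC median. Bcl7a and Bcl7b had medians of 25.6 to 28.3 FPKM and 27.02 to 28.1 FPKM.

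The zinc finger subunits Bcl11a and Bcl11b are also known as transcription factors of forebrain neurons. Bcl11b ranged from 19.5 to 22.9 FPKM in VEH-HC (median 20.8) and from 22.3 to 28.03 FPKM in Y397D-T3 (median 25.7), which overlapped. The difference of 0.27 had an adjusted p of 0.11 in the fit of all 30 libraries and of 0.0114 in the fit of those 2 conditions alone. The dentate granule markers, whose mean log2 level Bcl11b followed over mice, had median sums of 111.6 FPKM in VEH-HC and 144.1 FPKM in Y397D-T3. Their part in the Bcl11b difference was not tested. Bcl11a had medians of 39.9 FPKM in VEH-HC and 43.9 FPKM in Y397D-T3 (difference 0.14, adjusted p = 0.106, or 0.0439 in the fit of those 2 conditions alone).

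**Figure D3:**
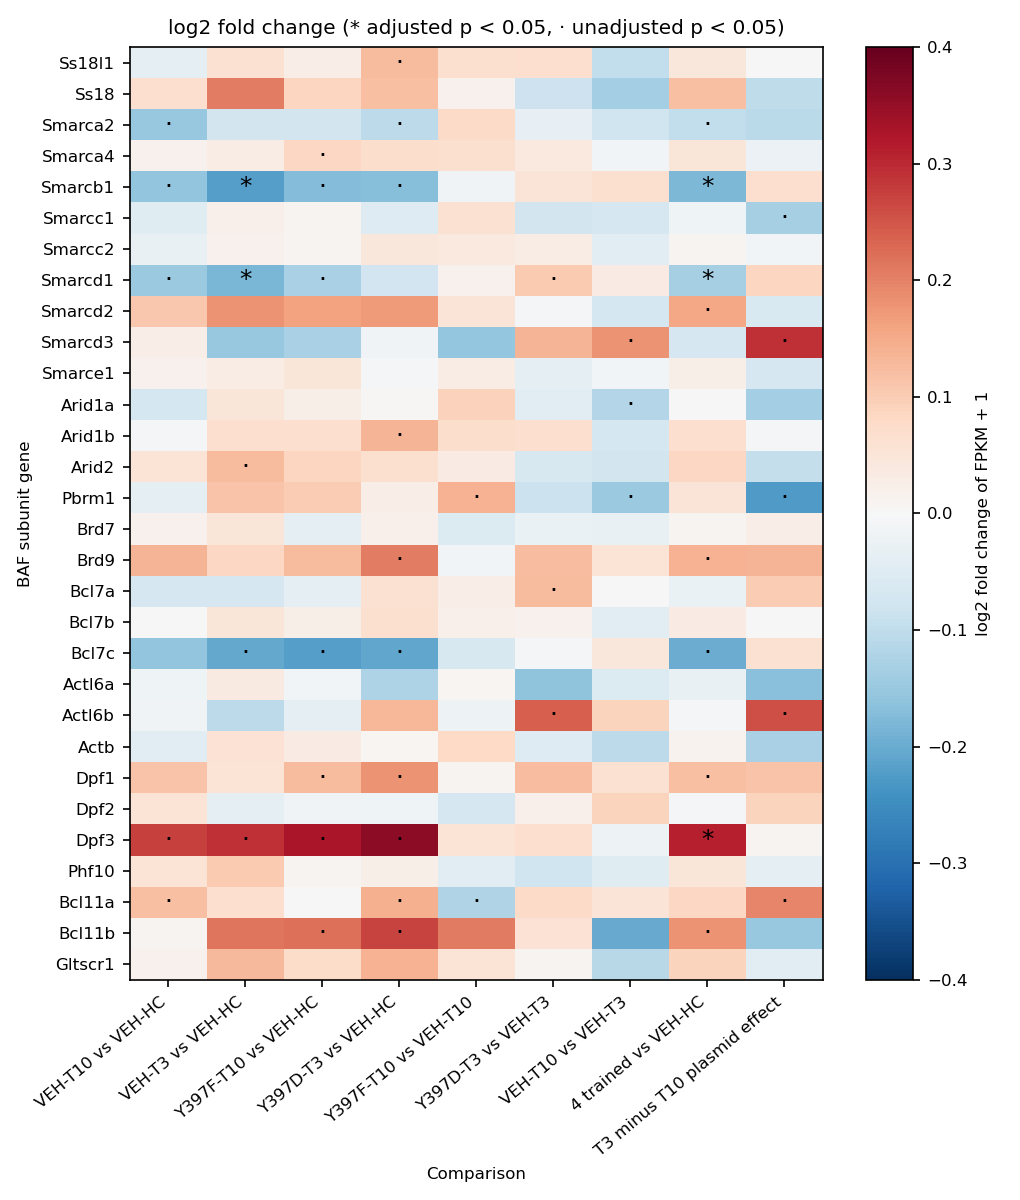
Log2 fold change of each BAF subunit gene in each of the 9 comparisons, red for higher and blue for lower, with an asterisk for an adjusted p under 0.05 and a dot for an unadjusted p under 0.05. The asterisks lie on Smarcb1 and Smarcd1 in VEH-T3 against VEH-HC, and on those genes and Dpf3 in the trained mean.

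The comparisons of each plasmid with its vehicle at the same training time ask what the plasmid with its substitution added, and VEH-T10 against VEH-T3 compares the training times. In all of these 0 members passed the adjusted threshold. For Y397F-T10 against VEH-T10, 0 rows in the whole table passed (0% of all rows), and 2 members, Pbrm1 and Bcl11a, had an unadjusted p under 0.05, beside 3.78% of all rows. The Cyber-T-style test called 0 members and 0.197% of rows. For Y397D-T3 against VEH-T3, 0.00758% of all rows passed, 3 members, Smarcd1, Bcl7a and Actl6b, had an unadjusted p under 0.05 beside 7.87% of rows, and the Cyber-T-style test called Actl6b alone and 0.599% of rows. For VEH-T10 against VEH-T3, 0.0455% of rows passed adjustment, 3 members, Smarcd3, Arid1a and Pbrm1, had an unadjusted p under 0.05 beside 8.15% of rows, and the Cyber-T-style test called 0 members and 0.622% of rows. For the difference of the 2 plasmid effects, 0.0303% of rows and 0 members passed, and 5 members, Smarcc1, Smarcd3, Pbrm1, Actl6b and Bcl11a, had an unadjusted p under 0.05 beside 9.08% of rows; the Cyber-T-style test covers pairs of conditions and has no such contrast.

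Actl6b encodes the neuronal actin-related subunit BAF53b, which is needed for memory in rodents. It ranged from 42.6 to 54.5 FPKM in VEH-T3 (median 47.9) and from 52.2 to 61.4 FPKM in Y397D-T3 (median 56.8), so the ranges met at their edges. The log2 difference was 0.24, with a 95% interval from 0.07 to 0.40 and an adjusted p of 0.52. Neuron markers, whose mean log2 level Actl6b followed over mice, had median sums of 2690 FPKM in VEH-T3 and 2949 FPKM in Y397D-T3, and interneuron markers 585.8 and 744.3 FPKM. Their part in the Actl6b difference was not tested. The range was 46.3 to 58.5 FPKM in VEH-HC (median 50.4), 45.1 to 58.0 FPKM in VEH-T10 (median 51.02) and 43.8 to 60.5 FPKM in Y397F-T10 (median 49.7), all broadly overlapping. For the 3 members called against VEH-HC, the effect of a plasmid was bounded as follows. Smarcb1 differed by -0.02 between Y397F-T10 and VEH-T10 (95% interval -0.13 to 0.10) and by 0.05 between Y397D-T3 and VEH-T3 (-0.06 to 0.16). Smarcd1 differed by 0.02 (-0.08 to 0.12) and 0.10 (0.01 to 0.20, adjusted p = 0.613). Dpf3 differed by 0.05 (-0.20 to 0.31) and 0.07 (-0.19 to 0.32). Ss18l1 differed by 0.06 (-0.05 to 0.18) and 0.07 (-0.05 to 0.18).

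Shares within paralog sets describe the make-up of the subunit pool in each library. They do not change when all values of a library are multiplied by the same factor. The length and GC trend is not such a factor, and the shares were not recomputed with it removed. Shares are ratios of mRNA, not of protein, and no test was run on them. In 2 sets 1 gene held most of the FPKM. The neuronal Actl6b made up 89.4% ± 1.84 (SD, n = 30) of Actl6b and Actl6a, and the core subunit gene Smarcc2 85.0% ± 0.746 of Smarcc2 and Smarcc1. Smarca2 held 63.3% ± 1.85 of the ATPases, Ss18l1 51.2% ± 4.43 of its pair with Ss18, Arid1b 40.5% ± 1.62 of its pair with Arid1a and Bcl11b 36.1% ± 3.86 of its pair with Bcl11a. The nBAF genes Dpf1 and Dpf3 together held 50.1% ± 2.84 of the 4 genes at their position.

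By condition, the Bcl11b share had medians of 34.5% in VEH-HC, 33.97% in VEH-T10, 39.5% in VEH-T3, 39.3% in Y397F-T10 and 36.98% in Y397D-T3, over a range of 26.4% to 42.4%, with overlap between all conditions. The Smarca2 share ranged from 63.3% to 66.4% in VEH-HC and from 60.8% to 64.1% in Y397D-T3, with medians of 65.4% and 62.2%, and the other trained conditions had medians of 62.7% (VEH-T10), 62.0% (Y397F-T10) and 63.0% (VEH-T3). The Dpf1 and Dpf3 share ranged from 46.6% to 49.1% in VEH-HC and from 51.3% to 52.8% in Y397D-T3, without overlap, while the other trained conditions spanned 43.8% to 54.9%. The Actl6b share had its lowest median in VEH-T3 (87.6%, range 87.0% to 91.1%) and its highest in Y397D-T3 (91.2%, range 89.6% to 92.2%). The Ss18l1 share had medians between 48.7% and 53.6%, and its 2 highest values, 63.3% and 60.8%, belonged to mouse 1 of Y397F-T10 and mouse 1 of VEH-T3, the mice with the lowest glial marker sums in those conditions.

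**Figure D4:**
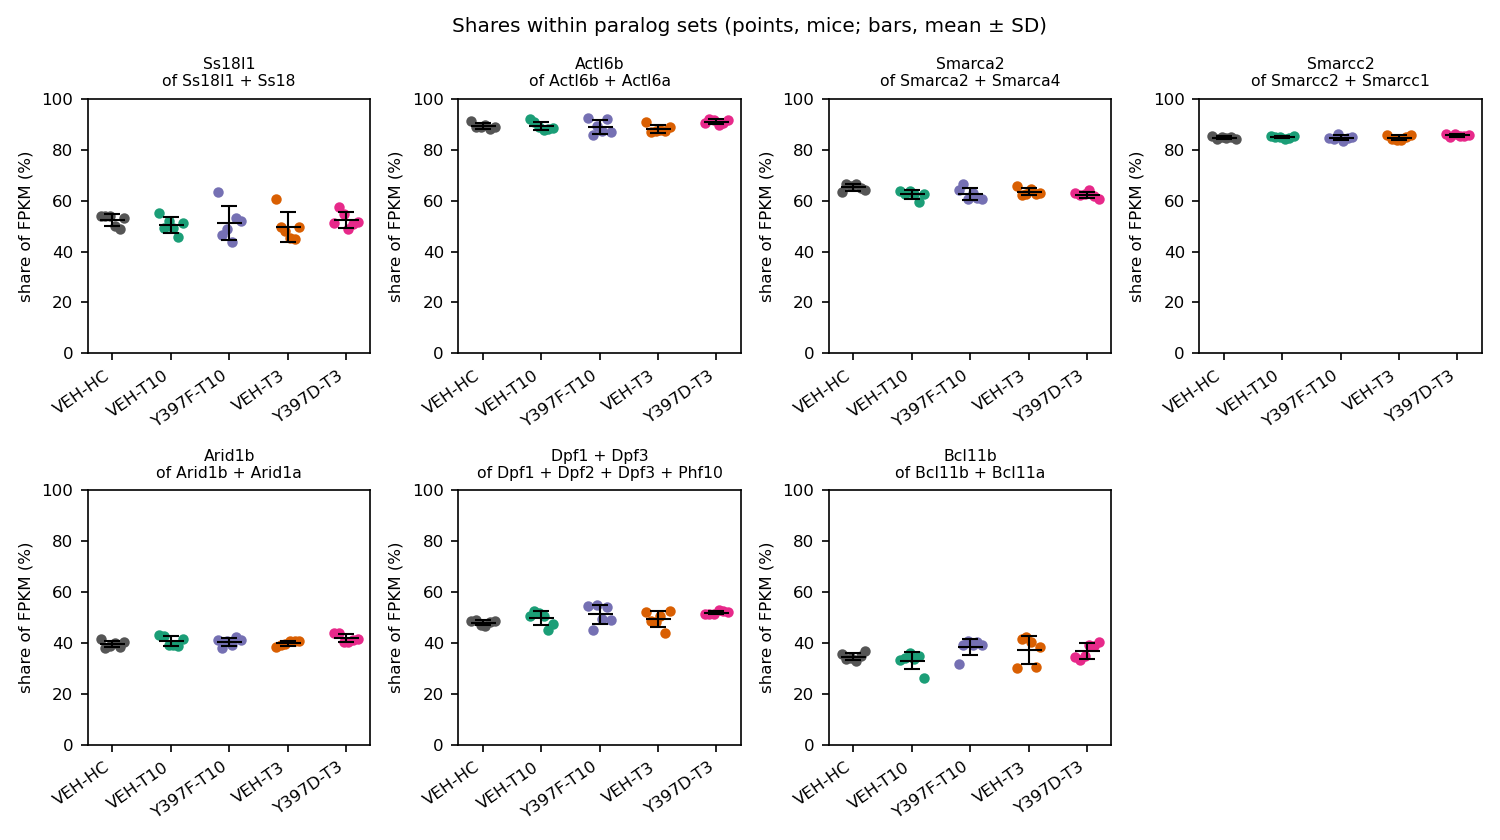
Share of FPKM held by the first-named gene or genes in each of 7 paralog sets, 1 point per mouse, with the mean and SD of 6 mice as bars and an axis from 0 to 100%. Actl6b and Smarcc2 stand near 89.4% and 85.0% in every condition, and the Dpf1 and Dpf3 share is higher in every Y397D-T3 mouse than in any VEH-HC mouse.

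Because hippocampal tissue holds several cell types, the level of each subunit gene was related to the mean log2 level of 11 marker lists over the 30 mice, after the mean of each condition had been subtracted. These relations were chosen after the data had been seen. Pearson's r and Spearman's rho were each tested with 100000 permutations of mice within conditions, and p values were adjusted over 330 relations. Both passed in 32 relations, which involved 15 of the 30 genes.

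The strongest joined Bcl11b to the dentate granule cell markers, with r = 0.915 (permutation p = 1e-05, the smallest possible, adjusted p = 0.00055) and rho = 0.803 (permutation p = 3e-05, adjusted p = 0.0033). It held at r = 0.883 without the 2 mice farthest from the median of the markers, and at 0.916 after the length and GC trend was removed. Dpf3 followed the same markers at r = 0.616 (permutation p = 0.00414, adjusted p = 0.0232) and rho = 0.59 (permutation p = 0.00069, adjusted p = 0.0148), with r = 0.53 without the 2 farthest mice. Its relation to interneuron markers was r = -0.715 (permutation p = 0.00021, adjusted p = 0.00433) and rho = -0.56 (permutation p = 0.00259, adjusted p = 0.0317), with r = -0.541 without the 2 farthest mice.

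Other subunits followed glial, endothelial or neuronal markers. Dpf2, the progenitor paralog of Dpf1 and Dpf3, rose with endothelial markers at r = 0.827 (permutation p = 1e-05, adjusted p = 0.00055) and rho = 0.823 (permutation p = 1e-05, adjusted p = 0.0033), and with microglia and astrocyte markers at r = 0.816 and 0.749; without the 2 farthest mice these were 0.8, 0.774 and 0.679. Actb had relations to the same lists, with r = 0.833 for microglia, 0.782 for astrocyte and 0.737 for endothelial markers, and so did Smarcd2, with r = 0.788, 0.69 and 0.73. For the 6 relations of Actb and Smarcd2 the adjusted permutation p of r ran from 0.00055 to 0.00259, rho from 0.62 to 0.726 with adjusted permutation p from 0.0033 to 0.015, and r without the 2 farthest mice from 0.583 to 0.788. Smarcd2 was lower where neuron markers were higher, with r = -0.637 (permutation p = 0.00039, adjusted p = 0.00574) and rho = -0.611 (permutation p = 0.00111, adjusted p = 0.0183), whereas Smarcd3 rose with them at r = 0.646 (permutation p = 0.0001, adjusted p = 0.00254) and rho = 0.705 (permutation p = 4e-05, adjusted p = 0.0033). In the CREST position, Ss18 ran against neuron markers at r = -0.685 (permutation p = 6e-05, adjusted p = 0.0018) and rho = -0.619 (permutation p = 0.00117, adjusted p = 0.0184), while the Ss18l1 relation to the same markers, r = 0.4, did not pass (permutation p = 0.0614, adjusted p = 0.146). After the length and GC trend was removed, r was -0.695 for Ss18 and 0.673 for Ss18l1, and these values were not tested. Bcl11a rose with neuron markers at r = 0.684 (permutation p = 0.0004, adjusted p = 0.00574) and rho = 0.706 (permutation p = 0.00026, adjusted p = 0.00953). Actl6b did so at r = 0.604 (permutation p = 0.0019, adjusted p = 0.0149) and rho = 0.601 (permutation p = 0.00157, adjusted p = 0.0216). Without the 2 farthest mice r was 0.647 for Smarcd3, -0.671 for Ss18, 0.66 for Bcl11a and 0.563 for Actl6b. Brd9 ran against choroid plexus markers at r = -0.573 (permutation p = 0.00347, adjusted p = 0.0207) and rho = -0.631 (permutation p = 0.00096, adjusted p = 0.0167). Its r was -0.43 without the 2 farthest mice and -0.71 after the length and GC trend was removed. The remaining relations belonged to Smarcd3, Brd7, Bcl7c, Dpf3, Bcl11a and Gltscr1, and none of the 30 genes had one with CA1 pyramidal markers.

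Both called scaffold genes had a relation as well. Smarcb1 rose with oligodendrocyte markers at r = 0.558 (permutation p = 0.00167, adjusted p = 0.0141) and rho = 0.556 (permutation p = 0.00282, adjusted p = 0.0321), but r was 0.418 without the 2 farthest mice and -0.248 after the length and GC trend was removed. The summed oligodendrocyte markers had medians of 2068 FPKM in VEH-HC and 2094 to 2614 FPKM in the trained conditions, where Smarcb1 was lower. With thalamus markers Smarcb1 had r = 0.576 (permutation p = 0.00289, adjusted p = 0.0191). There rho, at 0.488, did not pass (permutation p = 0.00965, adjusted p = 0.0662), and r was 0.0537 after the trend was removed. The summed thalamus markers had medians of 31.6 FPKM in VEH-HC and 25.5 to 28.3 FPKM in the trained conditions. Smarcd1 rose with interneuron markers at r = 0.674 (permutation p = 0.00038, adjusted p = 0.00574) and rho = 0.597 (permutation p = 0.0017, adjusted p = 0.0224), with r = 0.548 without the 2 farthest mice. The median sums of those markers by condition are the ones given beside Dpf3. The part of these cells in the Smarcb1 and Smarcd1 differences was not tested.

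**Figure D5:**
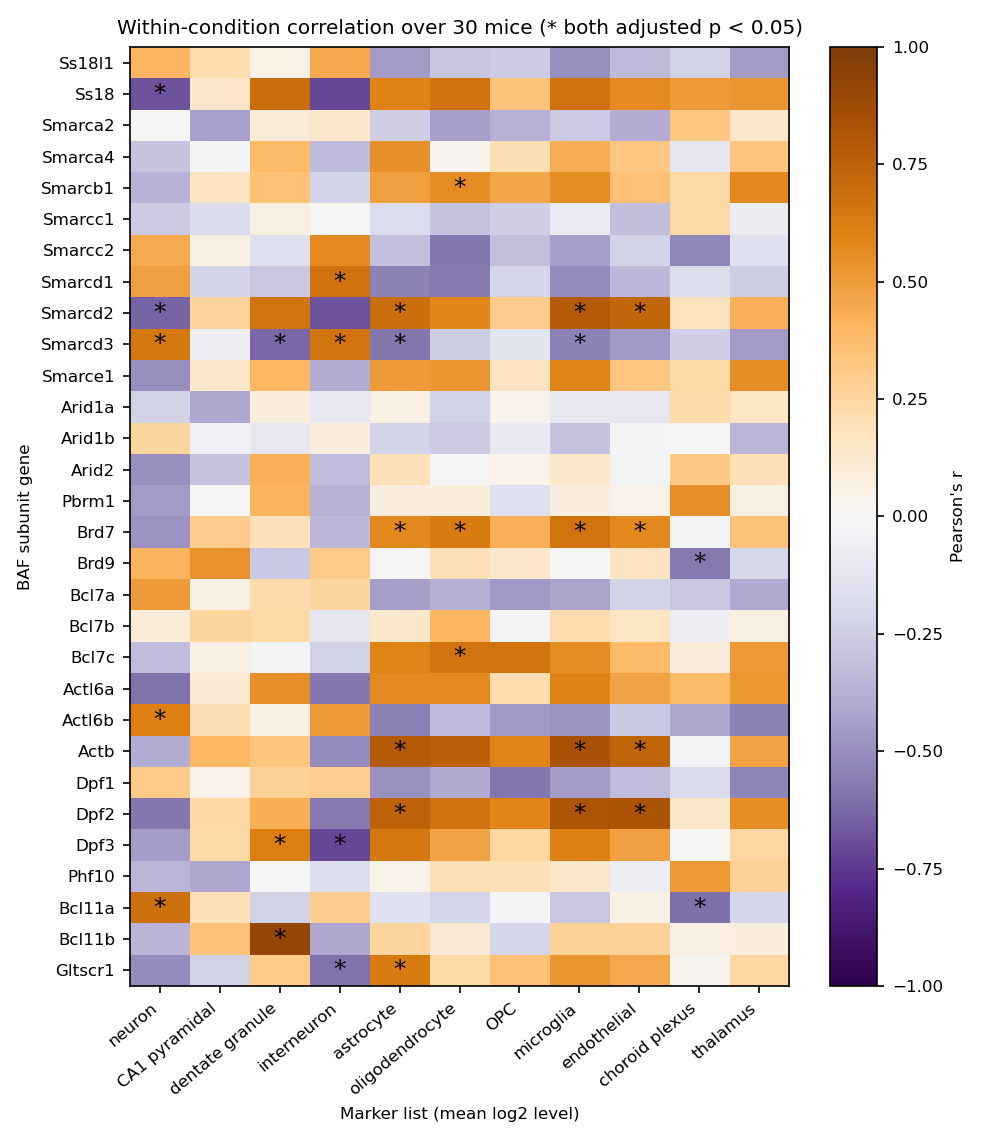
Pearson's r between each BAF subunit gene and the mean log2 level of each of 11 marker lists, over 30 mice after subtraction of condition means, orange for positive and purple for negative, with an asterisk where both adjusted p values were under 0.05. The darkest cell joins Bcl11b to dentate granule markers (r = 0.915), and Dpf2, Actb and Smarcd2 share the glial and endothelial columns.

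Other remodeller families were read beside BAF, and their counts stand beside 2.23% of all rows called higher in VEH-T3, 3.91% in Y397D-T3 and 3.86% in the trained mean, where 5.79% were called lower. With the length and GC trend removed, the rows called in Y397D-T3 went from 515 higher and 417 lower to 920 higher and 225 lower. Single genes of these families were not recomputed with that or the other settings used for the BAF members. Of 12 ISWI genes tested, 1 was called against VEH-HC, Bptf, the large subunit of NURF, which rose by 0.22 in VEH-T3 (adjusted p = 0.0476). Chrac1, a small histone-fold subunit, differed by -0.32 between Y397F-T10 and VEH-HC (adjusted p = 0.057). Of 16 CHD and NuRD genes, 3 rose in VEH-T3, 2 in Y397D-T3 and 2 in the trained mean, and 0 fell. Gatad2b, a NuRD subunit, rose by 0.49 in VEH-T3 (adjusted p = 0.0098), and the remodeller Chd9 rose by 0.16 in the trained mean (adjusted p = 0.0223). Of 18 INO80, SRCAP and TIP60 genes, 1 rose in VEH-T3 and 2 in the trained mean. Ino80d, a regulatory subunit of INO80, rose by 0.26 in VEH-T3 (adjusted p = 0.0189), and Actr5 differed by 0.23 between Y397D-T3 and VEH-T3 (adjusted p = 0.504).

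Of 7 CREST partners and nBAF targets, 1 rose in VEH-T3 and 1 in Y397D-T3, and in the trained mean 2 rose and 2 fell. The share of all rows called is the one given for the remodeller families. As for those families, single genes of this list, Crebbp included, were not recomputed with the other settings. The list was compiled with earlier results of these data known and is not independent evidence of a direction. Crebbp had a mean of 5.71 ± 0.947 FPKM (SD, n = 6) in VEH-HC and 7.67 ± 0.704 FPKM in VEH-T3, and rose by 0.38 (adjusted p = 0.0091 by limma). Its paralog Ep300 differed by 0.17 in the same comparison (adjusted p = 0.113). Ngef, an nBAF target, fell by 0.25 in the trained mean (adjusted p = 0.0148).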

How the data were processed

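Total RNA of dorsal hippocampus from 30 mice was sequenced. The authors aligned paired 150-base reads to mm10 with TopHat2 2.1.1 and computed FPKM with Cufflinks 2.2.1, which divides by transcript length and mapped fragments, and these FPKM values were used as deposited; all value columns were used (0 left out). Libraries of 2 instrument types were not assigned to samples in the sources used here.

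After addition of 1 and log2 transformation, rows averaging at least 1 FPKM were fitted in limma 3.58.1 (R 4.3.3) over all 30 libraries, by condition, with a mean-variance trend and Benjamini-Hochberg adjustment per comparison at 0.05. Adding 1 draws the changes of low genes toward 0. Replicates are different mice. The members, lists and tests were chosen with earlier results of these data known. Values are given for every member called, for the 7 paralog sets, Ss18l1, Smarca4 and Actl6b, for Crebbp and Ep300, and for the 2 members of each other list with the smallest p; other members were named after their values were seen. Coordinates, length and GC content are from GENCODE M21 by symbol (99.3% of tested rows matched). Marker relations and figures used Python 3.11.15, numpy 2.4.6, pandas 2.3.3, scipy 1.17.1 and matplotlib 3.10.9. Scripts were tested on simulated data.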

Additional observations from a re-analysis of the deposited data

Results flagged for a closer look

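A sample far from the other 5 of its condition was found in 12 of the 150 sets of 6 mice tested, where chance gives about 1 in 20. Mouse 1 of VEH-T3 accounted for 4 of them, with Ss18 at 8.59 FPKM (other mice 12.95 to 15.1), Smarca2 at 50.26 (44.9 to 46.6), Smarcd2 at 6.99 (10.03 to 11.7) and Actl6a at 5.00 (6.30 to 6.94). Mouse 1 of Y397F-T10 accounted for 4 more, with Smarcb1 at 34.07 FPKM (39.2 to 41.5), Smarcd2 at 7.41 (9.97 to 10.6), Bcl7c at 13.51 (16.3 to 17.1) and Dpf2 at 12.52 (14.5 to 15.7). Mouse 1 of VEH-T10 had Dpf3 at 2.95 FPKM (4.04 to 4.61). These 3 mice had the lowest astrocyte, oligodendrocyte and microglia marker sums of their conditions; the part of those cells was not tested. The remaining values were Arid1a at 14.59 FPKM in Y397F-T10 mouse 5 (17.1 to 18.1) and at 14.12 in Y397D-T3 mouse 1 (16.6 to 17.8), and Pbrm1 at 4.78 in VEH-HC mouse 4 (5.95 to 6.43). The difference between both plasmid effects passed adjustment for 0 members.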

How the results depend on the processing

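Recomputed counts of members called stayed within 1.5 times the reported count in 314 cases and did not in 34. Fold changes were recomputed only for members with an unadjusted p under 0.05 in the comparison concerned. Of these, 1786 cases kept direction and side of the threshold, 72 gained a call, 30 lost one and 0 changed direction. The settings include the unadjusted p itself, where a member not called after adjustment had to gain a call, so those gains were fixed in advance. In VEH-T3 against VEH-HC the count of 2 became 1 with median-centred libraries (Smarcb1), 1 with the Cyber-T-style test (Smarcb1), 1 with the length and GC trend removed (Smarcd2, higher), 0 with only the conditions compared, which leaves fewer libraries, and 5 with unadjusted p. In Y397D-T3 against VEH-HC the count of 0 became 1 with median-centred libraries (Dpf3), 1 with the Cyber-T-style test (Bcl11b), 4 with the length and GC trend removed, 4 with only the conditions compared and 10 with unadjusted p. With unadjusted p the counts were 5 in VEH-T10 and 7 in Y397F-T10 against VEH-HC, 9 in the trained mean, 2 in Y397F-T10 against VEH-T10, 3 in Y397D-T3 against VEH-T3, 3 in VEH-T10 against VEH-T3 and 5 for the plasmid difference; the Cyber-T-style test gave 1 in Y397D-T3 against VEH-T3 (Actl6b). Leaving out 1 library gave 0 to 5 members in VEH-T3, 0 to 2 in Y397F-T10 and 0 to 2 in Y397D-T3 against VEH-HC, 1 to 4 in the trained mean and 0 to 0 in the other comparisons. VEH-T3 had 0 without VEH-HC mouse 4 or VEH-T3 mouse 3, 1 without VEH-HC mouse 2 or VEH-T3 mouse 2 or 4, and 5 without VEH-T3 mouse 1. Y397F-T10 had 2 without its mouse 1 (Smarcd1, Dpf3). Y397D-T3 had 2 without its mouse 1, Y397F-T10 mouse 1 or VEH-T3 mouse 5, and 1 without VEH-HC mouse 6, Y397F-T10 mouse 5 or VEH-T3 mouse 1. The trained mean had 1 without VEH-HC mouse 2 or 4 (Smarcb1). The cause of these changes in count was not tested. With 1 library left out, or with only the conditions compared, the share of all rows called was not computed, so those counts have no background beside them.

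Replicate numbers belong to different mice. After the mean of each condition was subtracted, libraries of different conditions with the same number correlated at a median of 0.0417 (-0.496 to 0.84, 24 of 60 over 0.1). Those with different numbers did so at a median of 0.00649 (-0.625 to 0.743, 117 of 300 over 0.1). A median over all pairs cannot show whether a single number carries a shared feature. Mouse 1 of VEH-T10, of Y397F-T10 and of VEH-T3 each had the lowest glial marker sums of its condition. With the replicate block, Y397D-T3 against VEH-HC had 1 member called (Dpf3), and the block left the other counts as reported.

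The adjusted tests rest on 6 mice per condition and on FPKM without read totals, with a median standard error of 0.06 on the log2 scale for a pair of conditions, which limits how small a difference can be detected.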
